A study of Mus musculus with 10 samples.

Results

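The TNF and NF-kB response genes are a set of 38 genes chosen by name, the components and well-known targets of tumour necrosis factor (TNF) and NF-kB signalling, and the values below are their transcript levels in mouse blood progenitors that carried a retroviral HOXB4. A member is any gene of the list whose symbol stands in the annotation of the Affymetrix mouse whole-genome array used. This found 37 of the 38 members among 18193 genes with a symbol, read by 70 of 45037 probe sets. Nfkb1 was not analysed here. Where several probe sets read a member, the one brightest on average over the 10 arrays stands for it. This applied to 18 members, and their other probe sets are compared for direction. Values are log2 signals, and differences and their standard errors are on the log2 scale.

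The study looked for target genes of HOXB4, a homeobox protein used to multiply blood-forming stem cells outside the body. Lineage-negative, Sca1-positive mouse cells had received a retrovirus that also makes EGFP. HOXB4-ER is a tamoxifen-dependent fusion that 4-hydroxytamoxifen (TMX) keeps in the nucleus, and HOXB4const is the unmodified, always active protein, included to find effects of tamoxifen itself. All 5 groups shared 14 days of expansion with cytokines and 10 nM TMX, a sort for GFP-positive, lineage-negative, Sca1-positive, c-kit-positive cells and 12 h more with 10 nM TMX. The groups were HOXB4-ER cells without TMX for 1 h, such cells without TMX for 4 h, such cells left in 10 nM TMX for 1 h, HOXB4const cells without TMX for 1 h and HOXB4const cells left in 10 nM TMX for 1 h. Each group had 2 arrays, replicate 1 and replicate 2, which the labels call biological replicates without saying which animals or cultures they came from. The p-values measure only the spread between these arrays. Without a 4 h group that kept TMX, the time in culture and the withdrawal cannot be told apart at 4 h. The sources used here do not give the strain or age of the mice.

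TNF binds its receptors at the cell surface, where adaptors and ubiquitin ligases assemble a complex that activates the IkB kinases. These mark the IkB inhibitors for destruction, and NF-kB subunits then enter the nucleus and switch on cytokines, chemokines, survival genes and, as feedback, the inhibitors themselves. In the blood system the pathway is best known from monocytes, macrophages and other innate immune cells, and it also acts on stem and progenitor cells.

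The members were listed by name as components and well-known targets of the pathway, and their promoters were searched for the DNA element the factor binds. The 300 bases from 250 before to 50 after the first listed start, from RefSeq with build GRCm38.p6, were at hand for 31 of the 37 members. The NF-kB (kappa B) consensus, searched on both strands, was found in 14 of these 31 windows (45.2%), against 1175 of all 27018 windows (4.35%). As known NF-kB targets were chosen for the list, this share is not independent of that choice. A match is a run of letters and not a shown binding site. The promoters of Cxcl1 and Cxcl2 are printed since these neighbouring chemokine genes hold the same match while their values ran differently over the arrays, and those of Nfkbia, Nfkbie and Tnip1 since these inhibitors are described at most length. Capitals mark the matches, and overlapping matches run together. Cxcl1 is the window chr5:90890995-90891294 on the plus strand, Cxcl2 is chr5:90903649-90903948 on the plus strand, Nfkbia is chr12:55492598-55492897 on the minus strand, Nfkbie is chr17:45555450-45555749 on the plus strand and Tnip1 is chr11:54962891-54963190 on the minus strand. Each is printed 5′ to 3′ on the gene's strand.
Cxcl1: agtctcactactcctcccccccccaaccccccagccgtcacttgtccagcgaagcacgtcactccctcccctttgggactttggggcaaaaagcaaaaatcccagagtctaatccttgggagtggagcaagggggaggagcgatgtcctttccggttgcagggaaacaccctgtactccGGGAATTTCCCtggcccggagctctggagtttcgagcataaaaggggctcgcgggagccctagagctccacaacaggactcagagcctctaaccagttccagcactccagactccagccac
Cxcl2: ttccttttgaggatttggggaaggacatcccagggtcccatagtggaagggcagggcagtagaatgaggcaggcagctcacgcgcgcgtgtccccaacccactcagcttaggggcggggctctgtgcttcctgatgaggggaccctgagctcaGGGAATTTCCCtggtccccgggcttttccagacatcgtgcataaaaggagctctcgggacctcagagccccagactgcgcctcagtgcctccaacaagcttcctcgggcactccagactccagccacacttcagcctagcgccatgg
Nfkbia: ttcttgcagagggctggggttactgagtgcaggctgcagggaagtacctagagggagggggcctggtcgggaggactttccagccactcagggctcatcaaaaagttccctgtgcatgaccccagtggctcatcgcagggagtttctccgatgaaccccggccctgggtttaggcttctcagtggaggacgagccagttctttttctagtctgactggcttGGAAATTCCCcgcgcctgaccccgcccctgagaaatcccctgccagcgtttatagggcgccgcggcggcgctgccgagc
Nfkbie: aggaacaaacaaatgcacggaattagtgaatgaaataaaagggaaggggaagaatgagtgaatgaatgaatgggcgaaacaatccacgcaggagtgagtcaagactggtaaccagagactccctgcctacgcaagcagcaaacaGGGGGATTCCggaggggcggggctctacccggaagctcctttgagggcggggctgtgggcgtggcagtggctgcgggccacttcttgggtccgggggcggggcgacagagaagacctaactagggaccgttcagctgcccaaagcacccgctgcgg
Tnip1: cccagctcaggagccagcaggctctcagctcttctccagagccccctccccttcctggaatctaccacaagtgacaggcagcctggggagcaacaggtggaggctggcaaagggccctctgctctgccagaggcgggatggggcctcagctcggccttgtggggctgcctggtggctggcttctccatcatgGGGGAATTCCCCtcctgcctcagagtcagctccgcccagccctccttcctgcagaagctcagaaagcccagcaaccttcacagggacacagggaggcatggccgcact

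The arrays differed in ways the groups do not explain. Array medians lay between 3.96 and 5.32, and 1 array, replicate 1 of HOXB4const without TMX, was unlike the rest, with the highest median and 0.0155% of its values below 0. For Gapdh, the gap between its 3′ and 5′ control probe sets, which widens when RNA is short, was 0.74 to 1.42 on the replicate 1 arrays and 1.48 to 3.98 on the replicate 2 arrays. The probe set of Hoxb4 read 4.37 to 6.59 and that of Esr1 5.07 to 6.62, and it is not known here whether either reads the transgene. The 10 measured stem and progenitor markers summed to a signal of 6330 to 7863 on the replicate 1 arrays and 6982 to 9895 on the replicate 2 arrays, and none of them had a mean below the median level of all probe sets, 4.05.

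The members were read at widely different levels. Their mean log2 signals over the 10 arrays lay between 3.98 for Traf1, the lone member below the median level of all probe sets, and 9.82 for Nfkbia, which encodes the IkB alpha inhibitor. Signals of different probe sets are not a measure of which gene is more abundant. Among the ligands the means were 6.10 for Tnf, 5.69 for Il1b, 7.11 for Il6, 4.59 for Ccl2, 7.22 for Ccl3, 5.91 for Ccl4, 8.18 for Ccl5, 5.68 for Cxcl1 and 4.88 for Cxcl2. The receptors had 8.28 for Tnfrsf1a and 8.36 for Tnfrsf1b, which bind TNF, and 4.13 for Cd40, a receptor of the same family. Among adaptors, ligases and kinases, Traf2 had 6.13, Birc2 8.34, Birc3 8.51, Tank 7.06, Ikbke 5.92 and Bcl10 8.46. The subunits had 7.89 for Rela, 5.51 for Rel, 4.16 for Relb and 5.49 for Nfkb2. The other inhibitors and IkB family genes had 7.67 for Nfkbib, 7.12 for Nfkbie, 6.85 for Nfkbiz, 6.65 for Bcl3, 7.62 for Tnfaip3 and 8.33 for Tnip1. The effector targets had 7.94 for Icam1, 5.26 for Ptgs2, 9.73 for Sod2, 6.58 for Cflar, 5.96 for Gadd45b, 7.18 for Ier3 and 7.82 for Tnfaip2.

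**Figure D1:**
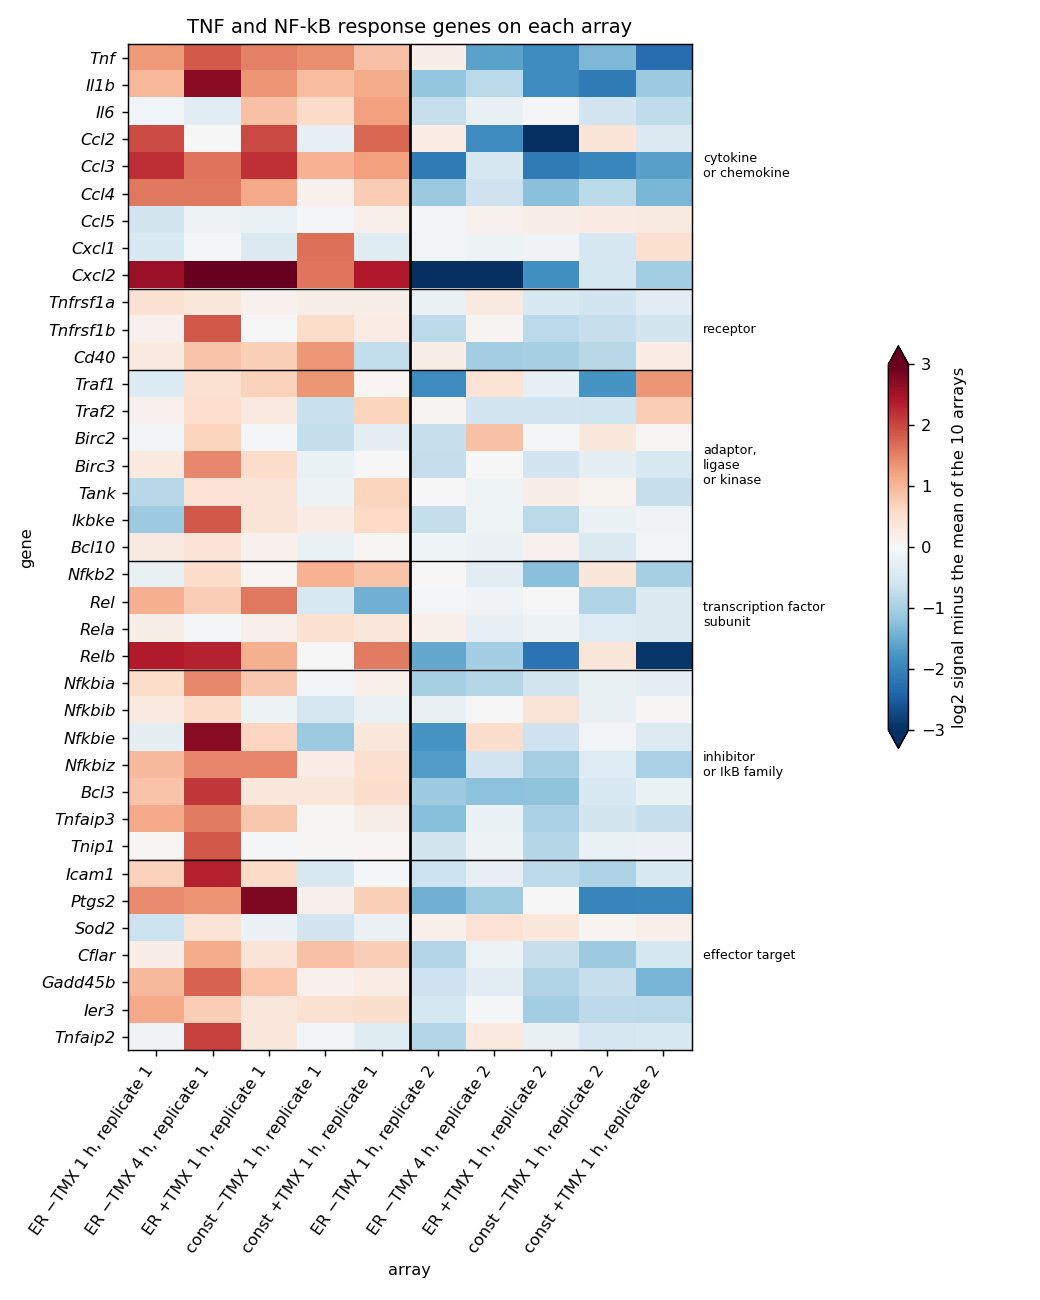
Log2 signal of 37 members (rows, grouped by role) on each of the 10 arrays (columns, replicate 1 on the left, replicate 2 on the right), as the difference from that member's mean over the 10 arrays; the colour scale ends at 3 to either side. Most rows are red on the left and blue on the right, and the column of replicate 1 after 4 h without TMX has 33 of 37 members above their mean.

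On the deposited scale, the widest median difference of the members was between the replicate numbers and not between the TMX groups. The members stood higher on the replicate 1 arrays by a median of 0.94, with 34 of 37 higher and 3 lower, against a median of 0.03 over all genes, of which 52.2% were higher. In all 5 groups 21 of 37 members (56.8%) were higher on the replicate 1 array, against 8.98% of all genes, and 2 members (5.41%) were lower in all 5, against 10.9% of all genes. For 14 members no replicate 2 array reached the lowest replicate 1 array, and for 0 the reverse held. Over all genes such separation was found for 3.11% in the higher and 4.81% in the lower direction. These members were Tnf, Il1b, Ccl3, Ccl4, Cxcl2, Nfkbia, Nfkbiz, Bcl3, Tnfaip3, Tnip1, Ptgs2, Cflar, Gadd45b and Ier3. In bulk RNA, more cells of a type and more RNA per cell cannot be told apart.

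The test of the replicate number depended on the variance model. With limma's fit over all probe sets and Benjamini-Hochberg adjustment, 0 of 37 members passed an adjusted p of 0.05 (smallest 0.132), and 0% of the 45037 probe sets passed as higher and 0% as lower. At an unadjusted p under 0.05 in limma there were 20 members and 6152 probe sets (13.7%). When limma was fitted to the brighter 22519 probe sets, those reaching the median level, 11 members passed as higher in replicate 1 and 0 as lower, against 3.37% and 0.404% of those probe sets. With limma's trend and robust variance model, 18 members passed as higher and 0 as lower, against 4% and 2.01% of the 45037 probe sets, and the 11 members were among these 18. The 11 were Tnf, Il1b, Ccl3, Ccl4, Cxcl2, Tnfrsf1b, Nfkbiz, Ptgs2, Cflar, Gadd45b and Ier3. The cut for the brighter probe sets used the mean over all 10 arrays. Among the 11, Cxcl2 and Ptgs2 had replicate 2 means of 2.25 and 3.97, below the cut of 4.05. They reached it only through replicate 1, so for them the cut favoured the direction tested.

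**Figure D2:**
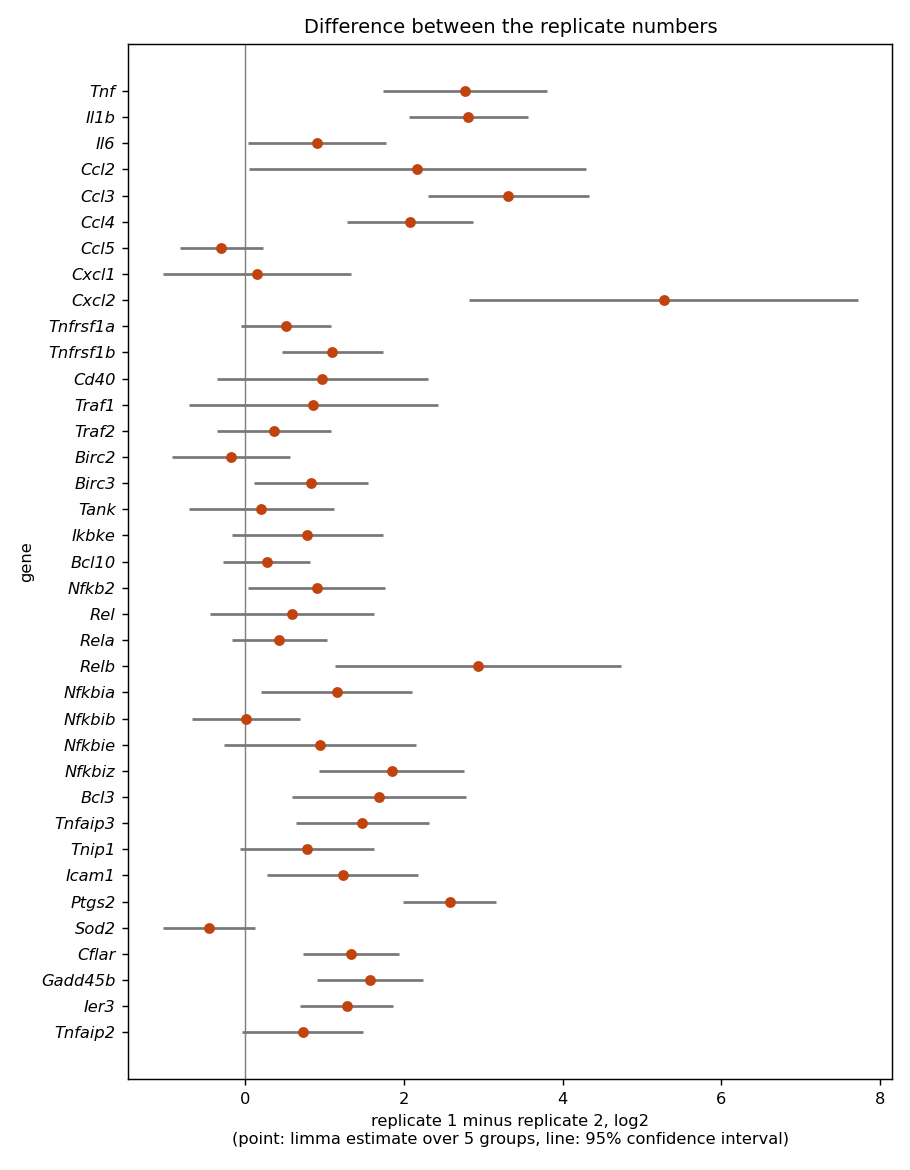
Replicate 1 minus replicate 2 for each of 37 members (rows, in the order of roles), on the log2 scale. Points are limma's estimates over the 5 groups and lines their 95% confidence intervals; the interval lies above 0 for 20 members, and the estimates run between 5.27 for Cxcl2, whose replicate 2 values all lie below a signal of 32, and -0.46 for Sod2.

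The ligands held the widest replicate difference of the 6 role groups, with a median of 2.17 over 9 genes and 8 of 9 higher. Tnf, the cytokine that starts the pathway, had signals of 7.38 and 6.31 in HOXB4-ER cells without TMX for 1 h, 7.95 and 4.50 in those without TMX for 4 h, and 7.61 and 4.21 in those with TMX. Here and below, each pair gives replicate 1 and then replicate 2. In HOXB4const cells Tnf had 7.49 and 4.76 without TMX and 6.99 and 3.82 with TMX. Every replicate 1 array lay above every replicate 2 array, while the TMX groups overlapped. The difference between the replicate numbers was 2.76 ± 0.42 (limma adjusted p = 0.148). As 4 of its 5 replicate 2 values lay below a signal of 32, or 5 on the log2 scale, no fold is given. With values below 32 set to it as a floor, an alternative, the difference was 2.22.

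Il1b, which encodes the inflammatory cytokine interleukin-1 beta, had signals of 6.68 and 4.54 in HOXB4-ER cells without TMX for 1 h, 8.37 and 4.89 in those without TMX for 4 h, and 7.02 and 3.81 in those with TMX. In HOXB4const cells Il1b had 6.61 and 3.59 without TMX and 6.81 and 4.60 with TMX. The replicate numbers did not overlap, and the highest of the 10 values was that of replicate 1 after 4 h without TMX. The difference between the numbers was 2.81 ± 0.31 (limma adjusted p = 0.134), and 2.10 with the floor, under which all 5 replicate 2 values lay.

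Ccl3, a chemokine made by macrophages, had signals of 9.43 and 5.11 in HOXB4-ER cells without TMX for 1 h, 8.84 and 6.71 in those without TMX for 4 h, and 9.42 and 5.12 in those with TMX. In HOXB4const cells Ccl3 had 8.25 and 5.27 without TMX and 8.44 and 5.58 with TMX. Its replicate numbers differed by 3.31 ± 0.41 or 9.95-fold (limma adjusted p = 0.148). Ccl4, a close relative of Ccl3, had signals of 7.48 and 4.79 in HOXB4-ER cells without TMX for 1 h, 7.50 and 5.28 in those without TMX for 4 h, and 7.03 and 4.64 in those with TMX. In HOXB4const cells Ccl4 had 6.04 and 5.10 without TMX and 6.66 and 4.53 with TMX. The numbers again did not overlap, with a difference of 2.07 ± 0.32 (limma adjusted p = 0.148), or 1.87 with the floor.

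The other chemokines did not share 1 pattern. Cxcl2, a neutrophil attractant singled out after its values were seen, had signals of 7.47 and 0.03 in HOXB4-ER cells without TMX for 1 h, 8.32 and -0.04 in those without TMX for 4 h, and 8.04 and 3.05 in those with TMX. In HOXB4const cells Cxcl2 had 6.49 and 4.35 without TMX and 7.28 and 3.85 with TMX. Its replicate difference of 5.27 ± 0.99 (limma adjusted p = 0.168) was 2.52 with the floor at 32, tried for Cxcl2 after seeing the data, since all 5 of its replicate 2 values lay below that floor. As deposited it was 7.44, 8.36 and 4.99 in the HOXB4-ER groups without TMX for 1 h, without TMX for 4 h and with TMX, against 2.14 and 3.43 in the HOXB4const groups without and with TMX. Cxcl1, also a neutrophil attractant, whose printed promoter holds the same match, had signals of 5.23 and 5.60 in HOXB4-ER cells without TMX for 1 h, 5.63 and 5.53 in those without TMX for 4 h, and 5.25 and 5.58 in those with TMX. In HOXB4const cells Cxcl1 had 7.34 and 5.18 without TMX and 5.33 and 6.16 with TMX. Its replicate difference was 0.15 ± 0.48 (limma adjusted p = 0.922), and the high value of HOXB4const replicate 1 without TMX lay on the array unlike the rest.

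Ccl2, which attracts monocytes, had signals of 6.54 and 4.82 in HOXB4-ER cells without TMX for 1 h, 4.61 and 2.71 in those without TMX for 4 h, and 6.57 and 0.88 in those with TMX. In HOXB4const cells Ccl2 had 4.35 and 4.97 without TMX and 6.31 and 4.16 with TMX. Its lowest value was that of HOXB4-ER replicate 2 with TMX, and the numbers overlapped (difference 2.17 ± 0.86, limma adjusted p = 0.359). All 5 replicate 2 values and 2 replicate 1 values of Ccl2 lay below a signal of 32, and with the floor the difference was 0.88. Ccl5, which attracts T cells and monocytes, was lower on replicate 1 in all 5 groups, with a difference of -0.31 ± 0.21 (limma adjusted p = 0.571). Il6, an inflammatory cytokine, was higher on replicate 1 in 4 of 5 groups, by 0.90 ± 0.35 (limma adjusted p = 0.352).

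Among the receptors, Tnfrsf1b, one of the TNF receptors, had signals of 8.48 and 7.57 in HOXB4-ER cells without TMX for 1 h, 10.23 and 8.45 in those without TMX for 4 h, and 8.35 and 7.56 in those with TMX. In HOXB4const cells Tnfrsf1b had 8.90 and 7.67 without TMX and 8.57 and 7.81 with TMX. It was higher on replicate 1 in 5 of 5 groups, by 1.10 ± 0.26 (limma adjusted p = 0.216), with an overlap of the numbers. Tnfrsf1a, the TNF receptor with a death domain, was higher on replicate 1 in 5 of 5 groups by 0.51 ± 0.23 (limma adjusted p = 0.41), and Cd40 in 4 of 5 by 0.97 ± 0.54 (limma adjusted p = 0.485). For Cd40, 4 of 5 replicate 1 values and all 5 replicate 2 values lay below a signal of 32. With the floor its difference was 0.08.

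The adaptors, ligases and kinases had the smallest replicate difference of the role groups, with a median of 0.36 over 7 genes and 6 of 7 higher. Traf1, an adaptor of TNF receptors, had signals of 3.58 and 2.11 in HOXB4-ER cells without TMX for 1 h, 4.44 and 4.39 in those without TMX for 4 h, and 4.68 and 3.74 in those with TMX. In HOXB4const cells Traf1 had 5.31 and 2.22 without TMX and 4.05 and 5.31 with TMX. Its probe set read just below the median level of all probe sets, and both HOXB4-ER arrays without TMX for 1 h lay below the other 4 HOXB4-ER arrays. Traf2, the related adaptor, had signals of 6.25 and 6.22 in HOXB4-ER cells without TMX for 1 h, 6.62 and 5.57 in those without TMX for 4 h, and 6.42 and 5.57 in those with TMX. In HOXB4const cells Traf2 had 5.45 and 5.54 without TMX and 6.79 and 6.87 with TMX. Both HOXB4const arrays without TMX lay below both arrays with TMX.

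Birc2 encodes a ubiquitin ligase of the TNF receptor complex, and it had signals of 8.25 and 7.64 in HOXB4-ER cells without TMX for 1 h, 9.002 and 9.22 in those without TMX for 4 h, and 8.31 and 8.27 in those with TMX. In HOXB4const cells Birc2 had 7.61 and 8.65 without TMX and 8.05 and 8.37 with TMX. The 2 highest of the 10 values were those after 4 h without TMX. Tank is a scaffold protein that binds TRAF adaptors, and it had signals of 6.22 and 7.07 in HOXB4-ER cells without TMX for 1 h, 7.50 and 6.93 in those without TMX for 4 h, and 7.45 and 7.27 in those with TMX. In HOXB4const cells Tank had 6.92 and 7.16 without TMX and 7.72 and 6.38 with TMX. Its numbers overlapped, and in HOXB4-ER cells both arrays without TMX for 1 h lay below both with TMX. Ikbke encodes a kinase related to the IkB kinases, and it had signals of 4.82 and 5.21 in HOXB4-ER cells without TMX for 1 h, 7.77 and 5.79 in those without TMX for 4 h, and 6.30 and 5.11 in those with TMX. In HOXB4const cells Ikbke had 6.15 and 5.73 without TMX and 6.51 and 5.82 with TMX. Both HOXB4-ER arrays without TMX for 4 h lay above both without TMX for 1 h for Ikbke. Birc3, the close relative of Birc2, was higher on replicate 1 in 5 of 5 groups by 0.83 ± 0.29, and Bcl10, an adaptor of antigen receptor signalling, by 0.27 ± 0.22 (limma adjusted p = 0.319 for Birc3 and 0.639 for Bcl10).

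The 4 measured subunits were all higher on replicate 1, with a median of 0.74. Nfkb2, the precursor of a subunit of the non-canonical pathway, had signals of 5.26 and 5.48 in HOXB4-ER cells without TMX for 1 h, 6.01 and 5.15 in those without TMX for 4 h, and 5.54 and 4.24 in those with TMX. In HOXB4const cells Nfkb2 had 6.53 and 5.84 without TMX and 6.33 and 4.48 with TMX. The groups compared and the replicate numbers overlapped. Rel, the c-Rel subunit, had signals of 6.58 and 5.48 in HOXB4-ER cells without TMX for 1 h, 6.26 and 5.41 in those without TMX for 4 h, and 7.10 and 5.52 in those with TMX. In HOXB4const cells Rel had 5.03 and 4.60 without TMX and 4.07 and 5.09 with TMX. Both HOXB4-ER arrays with TMX lay above both HOXB4const arrays with TMX. Relb, which partners with Nfkb2, differed between the numbers by 2.94 ± 0.73 and Rela, the main activating subunit, by 0.43 ± 0.24 (limma adjusted p = 0.228 for Relb and 0.494 for Rela). For Relb, all 5 replicate 2 values and 1 replicate 1 value lay below a signal of 32. With the floor its difference was 0.79, and as deposited it was -0.33 in HOXB4const cells without TMX.

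The inhibitors and IkB family genes were all higher on replicate 1, with a median of 1.15 over 7 genes. Nfkbia had signals of 10.37 and 8.83 in HOXB4-ER cells without TMX for 1 h, 11.25 and 8.96 in those without TMX for 4 h, and 10.64 and 9.27 in those with TMX. In HOXB4const cells Nfkbia had 9.74 and 9.60 without TMX and 9.97 and 9.56 with TMX. The numbers did not overlap, and their gap was 1.54, 2.29 and 1.37 in HOXB4-ER cells without TMX for 1 h, without TMX for 4 h and with TMX, against 0.13 and 0.41 in HOXB4const cells without and with TMX. Other probe sets of Nfkbia did not all read so small a gap in HOXB4const cells. That of mean 8.85 had 9.18 and 8.24 without TMX and 9.38 and 7.91 with TMX. That of mean 7.93 had 8.46 and 7.43, then 8.50 and 7.47. That of mean 9.57 had 9.45 and 9.09, then 9.76 and 9.34. The dimmest, of mean 5.46, had 5.96 and 5.17, then 5.56 and 5.65. The replicate difference of Nfkbia was 1.15 ± 0.38 (limma adjusted p = 0.303).

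Tnfaip3 encodes A20, the ubiquitin-editing enzyme that switches the pathway off, and it had signals of 8.75 and 6.35 in HOXB4-ER cells without TMX for 1 h, 9.15 and 7.42 in those without TMX for 4 h, and 8.43 and 6.65 in those with TMX. In HOXB4const cells Tnfaip3 had 7.66 and 7.06 without TMX and 7.80 and 6.94 with TMX. Its numbers did not overlap either, and the difference was 1.48 ± 0.34 (limma adjusted p = 0.209). Tnip1, a partner of A20, had signals of 8.35 and 7.77 in HOXB4-ER cells without TMX for 1 h, 10.19 and 8.17 in those without TMX for 4 h, and 8.30 and 7.46 in those with TMX. In HOXB4const cells Tnip1 had 8.35 and 8.13 without TMX and 8.39 and 8.15 with TMX. The value of replicate 1 after 4 h without TMX stood far above the other 9, which lay between 7.46 and 8.39.

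Nfkbie, which encodes the IkB epsilon inhibitor, had signals of 6.86 and 5.36 in HOXB4-ER cells without TMX for 1 h, 9.84 and 7.65 in those without TMX for 4 h, and 7.76 and 6.50 in those with TMX. In HOXB4const cells Nfkbie had 6.03 and 7.04 without TMX and 7.46 and 6.72 with TMX. Both arrays after 4 h without TMX lay above both after 1 h without TMX, and the HOXB4-ER replicate 2 array after 4 h did not reach replicate 1 with TMX. The nuclear IkB family genes Nfkbiz and Bcl3 were higher on replicate 1 by 1.84 ± 0.37 and 1.68 ± 0.45, while Nfkbib, which encodes IkB beta, differed by 0.01 ± 0.28 (limma adjusted p = 0.177 for Nfkbiz, 0.243 for Bcl3 and 0.992 for Nfkbib).

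**Figure D3:**
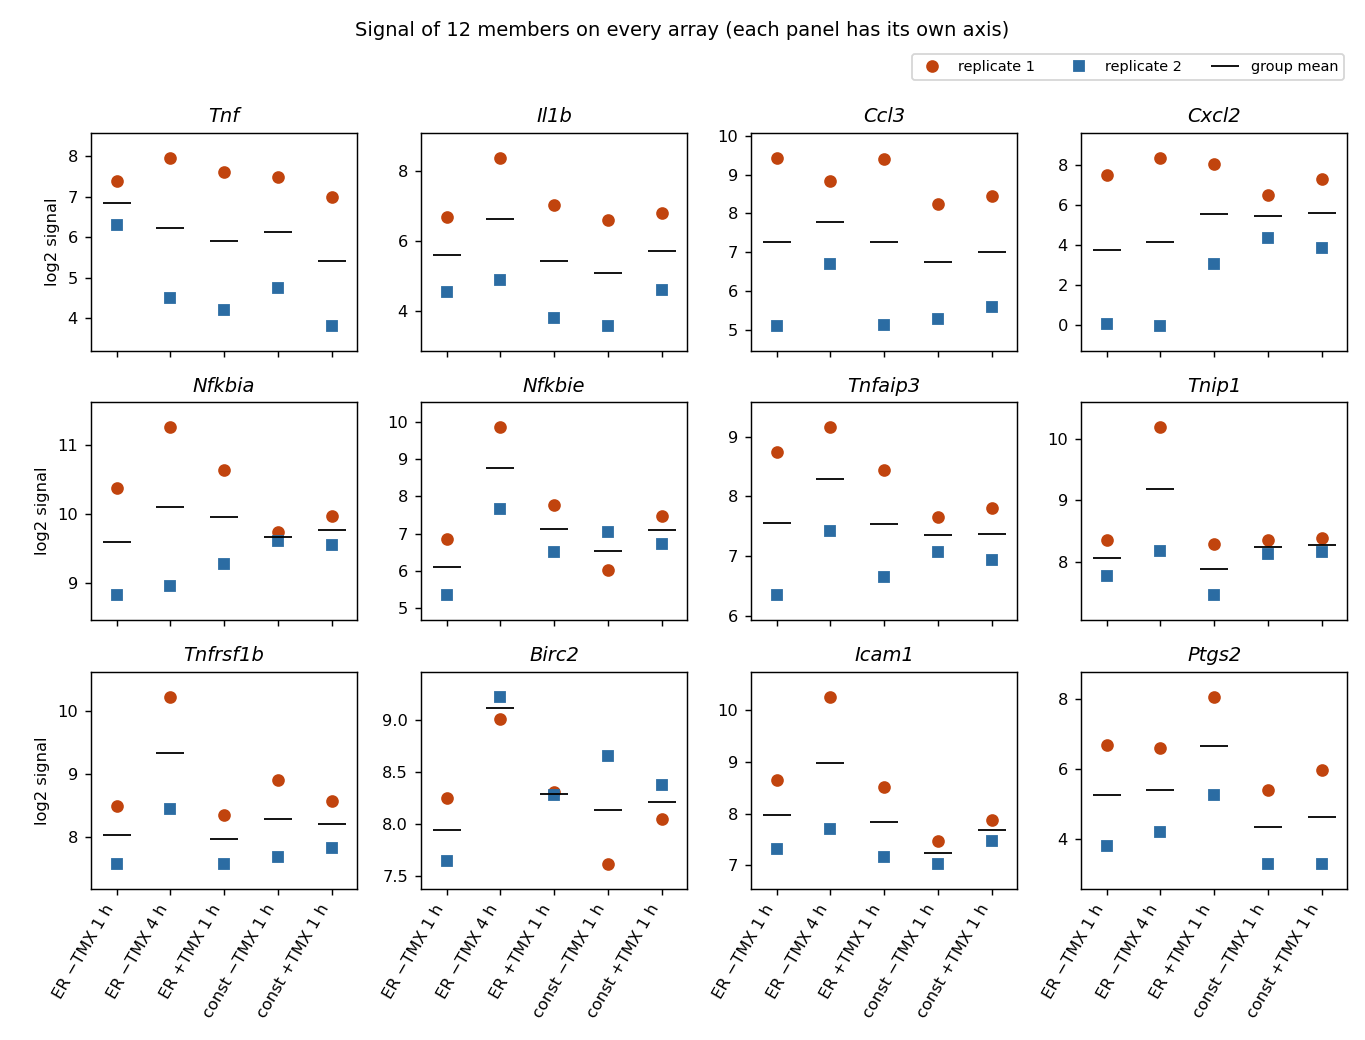
Log2 signal of 12 members on every array, by group along the horizontal axis, with replicate 1 as orange circles, replicate 2 as blue squares and the group mean as a line; each panel has its own vertical axis. Tnf, Il1b, Ccl3, Cxcl2, Nfkbia, Tnfaip3, Tnip1 and Ptgs2 separate by replicate number, and Il1b, Ccl3, Nfkbia, Nfkbie, Tnfaip3, Tnip1, Tnfrsf1b, Birc2 and Icam1 have their highest group mean after 4 h without TMX.

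The effector targets had a median replicate difference of 1.28 over 7 genes, with 6 of 7 higher. Ptgs2, the inducible cyclooxygenase, had signals of 6.69 and 3.81 in HOXB4-ER cells without TMX for 1 h, 6.61 and 4.20 in those without TMX for 4 h, and 8.05 and 5.26 in those with TMX. In HOXB4const cells Ptgs2 had 5.40 and 3.28 without TMX and 5.98 and 3.30 with TMX. Its difference between the numbers was 2.57 ± 0.24 with the smallest limma adjusted p of the members, 0.132. With the floor, below which 4 of its 5 replicate 2 values lay, it was 1.49. Within each number its HOXB4-ER arrays with TMX were the highest of the 5 groups. The other probe set of Ptgs2, whose mean of 3.56 lay below the median level of all probe sets, differed between the numbers by -0.03 ± 0.65.

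Gadd45b, a stress-induced gene, had signals of 6.93 and 5.34 in HOXB4-ER cells without TMX for 1 h, 7.74 and 5.62 in those without TMX for 4 h, and 6.80 and 5.07 in those with TMX. In HOXB4const cells Gadd45b had 6.09 and 5.28 without TMX and 6.19 and 4.57 with TMX. Its replicate numbers did not overlap, with a difference of 1.57 ± 0.27 (limma adjusted p = 0.164), and its highest value was replicate 1 after 4 h without TMX. Cflar, which blocks cell death from death receptors, had signals of 6.79 and 5.69 in HOXB4-ER cells without TMX for 1 h, 7.69 and 6.44 in those without TMX for 4 h, and 6.97 and 5.88 in those with TMX. In HOXB4const cells Cflar had 7.47 and 5.50 without TMX and 7.32 and 6.05 with TMX. The same 2 features held for Cflar, with a difference of 1.33 ± 0.25 between the numbers (limma adjusted p = 0.166). Ier3, an immediate early gene, had signals of 8.32 and 6.66 in HOXB4-ER cells without TMX for 1 h, 7.91 and 7.14 in those without TMX for 4 h, and 7.51 and 6.14 in those with TMX. In HOXB4const cells Ier3 had 7.64 and 6.39 without TMX and 7.70 and 6.36 with TMX. For Ier3 the numbers did not overlap either, by 1.28 ± 0.24 (limma adjusted p = 0.167), and its highest value was replicate 1 after 1 h without TMX.

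Tnfaip2, a gene first known for its induction by TNF, had signals of 7.71 and 6.93 in HOXB4-ER cells without TMX for 1 h, 9.87 and 8.11 in those without TMX for 4 h, and 8.13 and 7.59 in those with TMX. In HOXB4const cells Tnfaip2 had 7.74 and 7.31 without TMX and 7.46 and 7.36 with TMX. The highest value was again replicate 1 after 4 h without TMX. Icam1, an adhesion molecule, was higher on replicate 1 in 5 of 5 groups by 1.22 ± 0.39 (limma adjusted p = 0.287). Sod2, the mitochondrial superoxide dismutase, was lower on replicate 1 in 5 of 5 groups, with a difference of -0.46 ± 0.23 (limma adjusted p = 0.451).

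Markers of mature myeloid cells ran with the replicate number beside the members. All 16 measured monocyte and macrophage markers were higher on replicate 1, by a median of 2.42, and their summed signal was 20070 to 33560 on the replicate 1 arrays and 3129 to 7283 on the replicate 2 arrays. None of the 16 had a mean below the median level of all probe sets. The 9 dendritic cell markers were also all higher on replicate 1 and summed to 461 to 5476 on its arrays and 172.5 to 224 on the replicate 2 arrays, although 3 of them, Ciita, Zbtb46 and Ccr7, had means below that level. On replicate 1 the dendritic sum was 5050, 5476 and 4500 in HOXB4-ER cells without TMX for 1 h, without TMX for 4 h and with TMX, against 519 and 461 in HOXB4const cells without and with TMX. Of the 11 granulocyte markers 9 were higher on replicate 1, by a median of 0.59 over all 11, and they summed to 7817 to 21590 on its arrays and 8471 to 18630 on the replicate 2 arrays. Among them S100a8 differed by 5.34 ± 1.07 and S100a9 by 5.34 ± 1.69 (limma adjusted p = 0.177 and 0.288). Prtn3, Csf3r and Mpo differed by 0.02, 0.24 and 0.37, and Ctsg (-0.31) and Gfi1 (-0.70) were lower. On the HOXB4-ER replicate 1 arrays S100a9 read 9.86 without TMX for 1 h, 10.75 for 4 h and 10.55 with TMX. In HOXB4const cells S100a9 had 2.92 and 0.16 without TMX and 1.66 and 3.01 with TMX. There S100a8 had 5.64 and 1.93 without TMX and 5.40 and 4.00 with TMX. Of the 10 stem and progenitor markers 8 were lower on replicate 1 and 2 higher, with a median of -0.43. The erythroid, lymphoid and stromal markers summed to at most 120, 700.3 and 705.5 on any array. On replicate 1, 7 of 8 lymphoid markers were higher (median 1.01), as were 6 of 9 mast cell and basophil markers (1.06). So were 4 of 6 megakaryocyte markers (0.15), 3 of 5 erythroid markers (0.12) and 3 of 8 stromal and endothelial markers (-0.27). The sort was for lineage-negative cells, and the part of these markers, of the RNA length and of the array unlike the rest in the members' values was not tested.

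**Figure D4:**
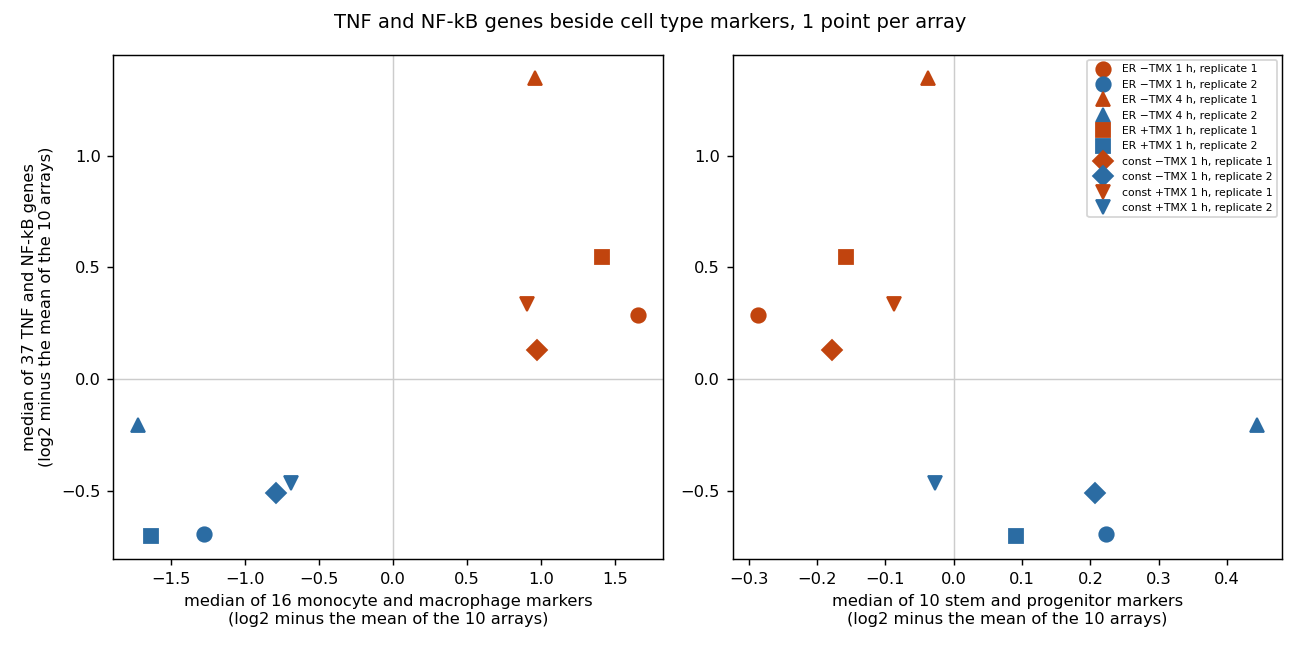
Each point is 1 array: the median of 37 members (vertical axis) against the median of 16 monocyte and macrophage markers (left) and of 10 stem and progenitor markers (right), all as log2 differences from the mean of the 10 arrays. The 5 replicate 1 arrays lie above 0 for the members and for the monocyte and macrophage markers and the 5 replicate 2 arrays below 0 for both; replicate 1 after 4 h without TMX is highest for the members (1.35) but not for the markers (0.96).

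A question of the design was what 1 h of TMX withdrawal did to HOXB4-ER cells. The median difference of the members was 0.00, with 18 of 37 higher and 19 lower, against 0.07 over all genes, of which 55.2% were higher. The median was -0.19 within replicate 1 and -0.01 within replicate 2. Its sign changed when single arrays were left out. It was -0.59 without replicate 1 and 0.37 without replicate 2 of the arrays without TMX. It was 0.52 without replicate 1 and -0.73 without replicate 2 of those with TMX. Here and in the comparisons below, this leaves unequal replicate numbers in the groups compared. Such a median therefore also carries the difference between the numbers. With limma 0 members passed (smallest adjusted p = 1), with 0% of all probe sets called. At an unadjusted p under 0.05 there were 0 members and 2145 probe sets. The 2 arrays without TMX lay above both arrays with TMX for 0 members, against 19.4% of all genes, and below them for 4 members, Traf1, Tank, Il6 and Birc2, against 11.2% of all genes. The median 95% confidence interval of a member reached 2.02 to either side. This fit leaves out the replicate number. Its errors and intervals, here and in the comparisons below, therefore also carry the difference between the numbers.

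The 4 members with the smallest p at 1 h were Traf1, Tank, Nfkbie and Ccl2. Traf1 differed by -1.36 ± 1.06 and Tank by -0.72 ± 0.59, and both were lower within both replicate numbers. The other probe set of Traf1, of mean 3.06, went the other way (0.22). Nfkbie differed by -1.02 ± 0.92, -0.90 within replicate 1 and -1.14 within replicate 2. Ccl2 differed by 1.96 ± 1.79, but that was -0.03 within replicate 1 and 3.94 within replicate 2 and rested on the low HOXB4-ER replicate 2 array with TMX, without which it was -0.89. Limma's adjusted p was 1 for each of the 4. Tnf (-0.23 within replicate 1 and 2.10 within replicate 2) and the feedback inhibitors Nfkbia (-0.27 within replicate 1 and -0.44 within replicate 2) and Tnfaip3 (0.31 within replicate 1 and -0.30 within replicate 2) did not pass the test (limma adjusted p = 1 each). Ptgs2 was lower without TMX by nearly the same amount in each number, -1.37 within replicate 1 and -1.45 within replicate 2, and with the replicate number as a block it had the smallest adjusted p of the members, 0.726.

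After 4 h without TMX the members stood higher than with TMX by a median of 0.46, with 28 of 37 higher and 9 lower, against 0.02 over all genes, of which 51.7% were higher. The median was 0.47 within replicate 1 and 0.54 within replicate 2, and 20 members were higher within both numbers and 4 lower, against 29.4% and 26.3% of all genes. By their brightest probe sets, 7 of 7 inhibitors were higher (median 0.74), as were 6 of 7 effector targets (0.70) and 3 of 3 receptors (0.46). So were 5 of 7 adaptors, ligases and kinases (0.21), 2 of 4 subunits (0.27) and 5 of 9 ligands (0.16). At least 1 other probe set went the other way for the inhibitors Nfkbia (-0.03) and Nfkbib (-0.05). The same held for the targets Tnfaip2 (-3.26), Sod2 (-1.72), Cflar (-0.15 and -0.14) and Gadd45b (-0.38). Single members did not pass the test: with limma 0 of 37 did (smallest adjusted p = 1), with 0% of all probe sets called, and at an unadjusted p under 0.05 there were 0 members and 1509 probe sets. Arrays did not overlap for 4 higher members, Tnfrsf1a, Tnfrsf1b, Birc2 and Sod2, against 15.9% of all genes, and for 1 lower member, Il6, against 13.8%. Leaving out single arrays, which makes the replicate numbers unequal, turned or widened the median. It was -0.26 without replicate 1 and 1.22 without replicate 2 at 4 h. It was 1.29 without replicate 1 and -0.11 without replicate 2 with TMX.

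Replicate 1 after 4 h without TMX was the highest of the 10 arrays for the members, with a summed signal of 16770 and 33 of 37 above their mean, against 10010 and 30 on replicate 1 with TMX. On replicate 2 the members summed to 6637 at 4 h without TMX, against 5470 with TMX. The monocyte and macrophage markers summed to 22780 at 4 h, against 25160 with TMX, on replicate 1 and to 3448, against 3129 with TMX, on replicate 2, and 7 of 16 were higher (median difference -0.15). The dendritic cell markers summed to 5476, against 4500 with TMX, on replicate 1 and to 223.4, against 172.5, on replicate 2, and 7 of 9 were higher (median 0.51). The lymphoid markers summed to 700.3, against 412.8, and to 99.88, against 52.01, and 7 of 8 were higher (median 1.28). Of these, Cd3e, Cd3g, Cd79a, Cd79b, Rag1 and Ebf1 had means below the median level of all probe sets. Il7r, the brightest, had 9.17 and 3.77 at 4 h, against 8.36 and 4.05 with TMX. For RNA length, the Gapdh gap was 1.01 and 1.48 at 1 h and 1.42 and 3.47 at 4 h without TMX, against 1.04 and 1.74 with TMX. The part of these markers and of RNA length in the 4 h values was not tested.

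The 4 members with the smallest p at 4 h were Tnip1, Tnfrsf1b, Nfkbie and Tnfaip2. Tnip1 differed by 1.30 ± 0.71 or 2.47-fold, and by 1.89 within replicate 1 and 0.71 within replicate 2. Tnfrsf1b differed by 1.38 ± 0.78, and by 1.88 within replicate 1 and 0.89 within replicate 2. Nfkbie had the largest difference of the members, 1.62 ± 0.92 or 3.07-fold, and 2.08 within replicate 1 and 1.16 within replicate 2. Tnfaip2 differed by 1.13 ± 0.66, and by 1.74 within replicate 1 and 0.52 within replicate 2, but a dim probe set of it went the other way and the mean of its probe sets differed by -0.32. Each was higher within both numbers, and limma's adjusted p was 1 for each. Birc2, Ikbke and Icam1 followed, with 0.82 ± 0.51, 1.08 ± 0.76 and 1.14 ± 0.94.

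Of the ligands, 5 of 9 stood higher at 4 h and 4 lower. Tnf differed by 0.31 ± 1.75, 0.34 within replicate 1 and 0.29 within replicate 2. Il1b stood higher by 1.21 with a standard error of 1.73, and by 1.35 within replicate 1 and 1.07 within replicate 2. With the replicate number as a block the standard error of Il1b was 0.48, but no member passed the adjusted p in that fit. The replicate 2 values of Il1b were dim, 4.89 at 4 h and 3.81 with TMX. Cxcl2 stood lower by a difference of -1.41 ± 3.42 that was 0.27 within replicate 1 and -3.09 within replicate 2. Of the best-known feedback inhibitors, Tnfaip3 was 0.72 within replicate 1 and 0.77 within replicate 2, and Nfkbia was 0.61 within replicate 1 and -0.31 within replicate 2. Ptgs2 was again lower without TMX, -1.45 within replicate 1 and -1.06 within replicate 2. The same arrays with TMX served as the reference at 1 h and 4 h, so the likeness of its values at both times is not a repeat. None of these passed the test (limma adjusted p = 1 each).

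**Figure D5:**
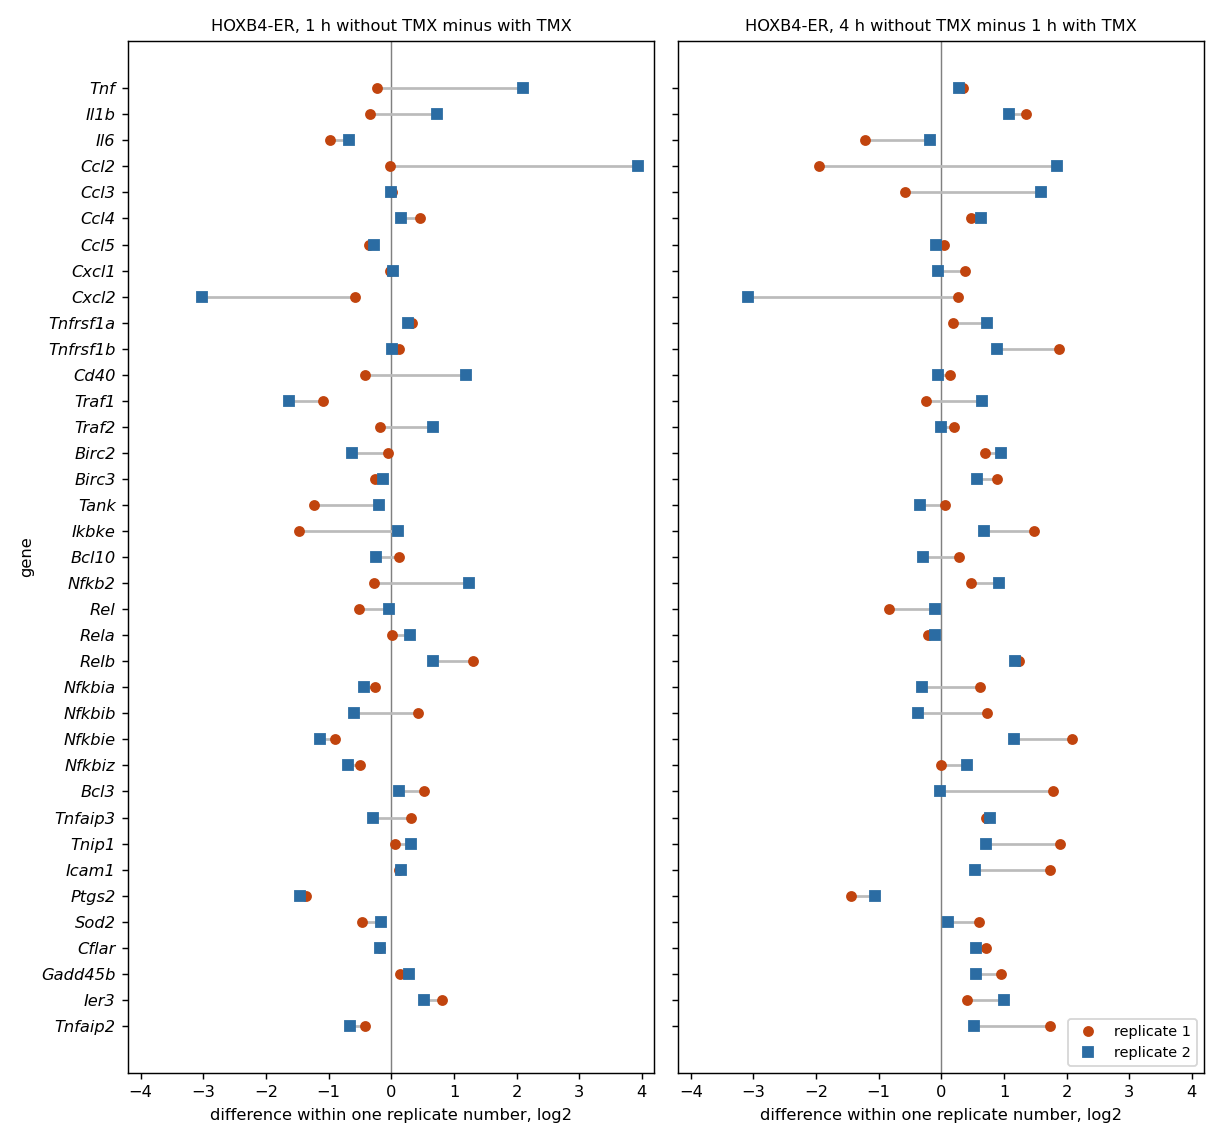
HOXB4-ER without TMX minus with TMX for each of 37 members (rows), after 1 h (left) and 4 h (right), on the log2 scale, within replicate 1 (orange circles) and within replicate 2 (blue squares). Both panels use the same arrays with TMX; at 4 h 20 members lie right of 0 in both numbers and 4 left of it in both, and at 1 h 10 and 15.

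Set against 1 h without TMX, the members at 4 h stood higher by a median of 0.50, with 31 of 37 higher and 6 lower, against -0.06 over all genes, of which 46.5% were higher. The median was 0.57 within replicate 1 and 0.39 within replicate 2. By their brightest probe sets all 7 inhibitors and all 7 effector targets were higher, and 6 of 7 adaptors, ligases and kinases (median 0.93). At least 1 other probe set went the other way for 3 of those inhibitors, Tnfaip3 (-1.07), Nfkbiz (-0.35) and Nfkbia (-0.08), and for 4 of those targets, Tnfaip2 (-3.08), Sod2 (-1.59), Cflar (-1.02 and -0.48) and Gadd45b (-0.32). With limma 0 members passed (smallest adjusted p = 0.771), with 0% of all probe sets called, and at an unadjusted p under 0.05 there were 2 members and 2558 probe sets. Arrays did not overlap for 6 higher members, Nfkbie, Tnfaip2, Ikbke, Birc2, Traf1 and Sod2, against 15.2% of all genes, and for 2 lower members, Ccl2 and Rela, against 21.2%. The other probe set of Traf1 also went the other way (-0.27). The median was -0.22 without replicate 1 and 1.36 without replicate 2 at 4 h, and 1.37 without replicate 1 and -0.15 without replicate 2 at 1 h.

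Nfkbie differed by 2.63 ± 0.92 or 6.21-fold between 4 h and 1 h, with a 95% confidence interval of 0.46 to 4.81, and by 2.98 within replicate 1 and 2.29 within replicate 2 (limma adjusted p = 0.771). Tnfaip2 differed by 1.66 ± 0.66 (limma adjusted p = 0.839), with the mean of its probe sets at -0.14. Ikbke differed by 1.77 ± 0.76 and Birc2 by 1.17 ± 0.51 (limma adjusted p = 0.88 and 0.881). Birc2 stood higher by 0.76 within replicate 1 and 1.58 within replicate 2. This comparison shares its 4 h arrays with the one before.

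HOXB4const cells, in which TMX should not act through HOXB4, were compared the same way at 1 h. The members' median was -0.09, with 12 of 37 higher and 25 lower, against 0.02 over all genes, of which 52.1% were higher, and -0.19 within replicate 1 and -0.02 within replicate 2. It was -0.40 without replicate 1 and 0.34 without replicate 2 of the arrays without TMX, and 0.24 without replicate 1 and -0.50 without replicate 2 of those with TMX. With limma 0 members passed (smallest adjusted p = 1), with 0% of all probe sets called, and at an unadjusted p under 0.05 there were 1 member and 1956 probe sets. Arrays did not overlap for 0 higher members, against 14% of all genes, and for 4 lower ones, Traf2, Bcl10, Nfkbib and Icam1, against 9.92%. Traf2 had the smallest p, with a difference of -1.33 ± 0.53 that was -1.34 within replicate 1 and -1.33 within replicate 2 (limma adjusted p = 1). Nfkb2 (0.78 ± 0.77), Traf1 (-0.91 ± 1.06) and Cxcl1 (0.52 ± 0.73) came next, each with a limma adjusted p of 1, and each changed sign when 1 array was left out: Nfkb2 was -0.14 without replicate 2 with TMX, Traf1 0.63 without replicate 2 without TMX, and Cxcl1 -0.56 without the replicate 1 array unlike the rest.

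The 1 h withdrawal differences of the 2 constructs were then set against each other. The median of the difference between constructs was -0.08, with 17 of 37 higher in HOXB4-ER and 20 lower, against 0.02 over all genes. With limma 0 members passed (smallest adjusted p = 1), with 0% of all probe sets called, and at an unadjusted p under 0.05 there were 0 members and 1698 probe sets. The median confidence interval reached 2.86 to either side. Traf2 had the smallest p, with 1.57 ± 0.74 (limma adjusted p = 1), its withdrawal difference being 0.24 for HOXB4-ER and -1.33 for HOXB4const.

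With TMX present, when both forms of HOXB4 should be active, HOXB4-ER cells were set against HOXB4const cells. The median of HOXB4-ER minus HOXB4const was 0.08, with 22 of 37 higher and 15 lower, against -0.10 over all genes, of which 41.5% were higher. It was 0.21 within replicate 1 and -0.18 within replicate 2. Without single arrays it was -0.64 and 0.65 (replicate 1 or 2 of HOXB4-ER left out) and 0.41 and -0.33 (replicate 1 or 2 of HOXB4const left out). With limma 0 members passed (smallest adjusted p = 1), with 0% of all probe sets called, and at an unadjusted p under 0.05 there were 1 member and 1972 probe sets. Arrays did not overlap for 3 higher members, Rel, Tnfaip2 and Bcl10, against 10.2% of all genes, and for 1 lower member, Traf2, against 20.6%.

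Rel stood higher in HOXB4-ER cells by 1.73 ± 0.73, 3.03 within replicate 1 and 0.43 within replicate 2, and Traf2 differed by -0.83 ± 0.53, -0.37 within replicate 1 and -1.30 within replicate 2. Ptgs2 differed by 2.02 ± 1.57, with close values of 2.08 within replicate 1 and 1.96 within replicate 2. Ccl2 differed by -1.52 ± 1.79, 0.26 within replicate 1 and -3.29 within replicate 2, and was 1.33 without the HOXB4-ER replicate 2 array with TMX. Limma's adjusted p was 1 for each of the 4, and the smallest with the replicate number as a block was 0.729, for Ptgs2.

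The scale of the arrays bears on these medians. The deposited values share a trimmed mean, but the arrays' own medians differed between the groups compared, by 0.39 for HOXB4-ER at 1 h, -0.03 at 4 h, -0.41 for 4 h minus 1 h, 0.31 for HOXB4const, -0.42 for HOXB4-ER minus HOXB4const and 0.32 between the replicate numbers. Centring each array on its median takes these amounts off every gene alike. The members' medians were then -0.39 at 1 h, 0.49 at 4 h, 0.92 for 4 h minus 1 h, -0.40 in HOXB4const cells, 0.50 for HOXB4-ER minus HOXB4const and 0.62 between the replicate numbers. The medians of all genes were then -0.32, 0.05, 0.36, -0.28, 0.32 and -0.29 in the same order. The gap between the members' median and that of all genes, which centring does not alter, was -0.07, 0.44, 0.56, -0.12, 0.18 and 0.90.

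Members with several probe sets were not always read alike. For the replicate number 24 of 33 other probe sets had the direction of the brightest, and 10 of 18 members had all of theirs in 1 direction. For the 4 h comparison with TMX 23 of 33 did, for the 1 h comparison 16 of 33, and for 4 h minus 1 h 17 of 33, with all alike for 6 of 18 members. The other probe set of Nfkbie had the direction of the brightest in these 3 comparisons and for 4 h minus 1 h, with -0.21 at 1 h, 0.81 at 4 h, 1.02 for 4 h minus 1 h and 0.99 between the replicate numbers.

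The wider pathway, 92 measured genes of receptors, kinases, ubiquitin regulators and other targets outside the 37 members, had 0 genes past limma's adjusted p in any of the 7 comparisons. Its median was -0.06 at 1 h without TMX against with TMX in HOXB4-ER cells (44 higher, 48 lower), 0.08 at 4 h (55 higher, 37 lower) and 0.17 for 4 h minus 1 h (56 higher, 36 lower). In HOXB4const cells it was -0.06 (38 higher, 54 lower). Between the replicate numbers it was 0.28 (61 higher, 31 lower), and among its 43 other target genes 0.74 (34 higher, 9 lower). The receptors Tlr7 and Tlr2, which sense microbial molecules, had the smallest p there, with 4.58 ± 0.49 and 2.23 ± 0.30 (limma adjusted p = 0.134 and 0.148). At 1 h in HOXB4-ER cells these were the cytokine genes Cxcl9 (2.55 ± 1.10) and Csf2 (1.98 ± 0.86), and at 4 h Tnfrsf13c (1.53 ± 0.86), a receptor of B cells, and Ccrl2 (1.49 ± 1.02). For 4 h minus 1 h they were Cxcl9 (-3.59 ± 1.10) and Tlr9 (-2.92 ± 1.25), and in HOXB4const cells Cd80 (1.60 ± 0.64) and Cxcl9 (2.46 ± 1.10). For the difference between constructs they were Sdc4 (2.52 ± 1.38) and Csf2 (2.04 ± 1.22), and for HOXB4-ER minus HOXB4const with TMX Plau (-2.91 ± 1.66) and Il1r1 (-2.41 ± 1.53).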

How the data were processed

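The 10 arrays were labelled RNA of sorted cells in 5 groups of 2. The authors deposited 1 log2 signal for each probe set and array; GCOS and RMA are named per the submitters' processing notes, without their roles. On each array the mean signal without the lowest and highest 2% was 100.03 to 100.04, so the values were not normalized again. Depth has no meaning for arrays, and 2 arrays a group limit the precision. After leaving out 64 controls, limma 3.58.1 in R 4.3.3 fitted 1 mean for each group over all 45037 probe sets, with two-sided tests and Benjamini-Hochberg adjustment in each comparison at 0.05; the replicate number was tested in a fit of group and number. Errors of differences are limma's standard errors. Gene symbols came from the platform annotation, and promoters from RefSeq.

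Replicate numbers pair the arrays: differences between the numbers correlated in 10 of 10 pairs of groups (0.21 to 0.527). The fit with the number as a block was an alternative, since no protocol states it. Members and lists were chosen with earlier results of these data known. Values on every array are given for the 4 members with the smallest p in each comparison between groups (for the difference between constructs, the smallest), the 8 with the smallest p for the replicate number, and Tnf, Nfkbia and Tnfaip3; Cxcl2 was added after its values were seen. Of the wider pathway the 2 genes with the smallest p in each comparison are named. The alternatives were array centring, quantile normalization, a floor at 32, brighter probe sets, the mean of probe sets, other variance models, array weights, the block and leaving out each array.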

Additional observations from a re-analysis of the deposited data

Results flagged for a closer look

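Of the 23 members named by the rule, which Cxcl2 is not, 1 was picked out by opposite 1 h withdrawal differences in the constructs. For Tnip1 both HOXB4-ER pairs were higher without TMX, by 0.05 within replicate 1 and 0.31 within replicate 2, while both HOXB4const pairs were lower, at -0.04 and -0.02. The difference between constructs was 0.21 ± 1.01 and did not pass limma's test (adjusted p = 1). Outside those 23, Icam1 (0.12 and 0.15 in HOXB4-ER, -0.41 and -0.45 in HOXB4const cells) and Bcl3 (0.52 and 0.13, -0.19 and -0.26) had the same pattern, with differences between constructs of 0.56 and 0.55. These made 3 of 37 members, or 8.11%, against 6.35% of all genes, and 0 members had the opposite pattern, against 3.79% of all genes.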

How the results depend on the processing

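In the 6 comparisons between groups, 0 members passed limma's adjusted p under any alternative run, the fit with the replicate block included, in which 1, 3, 4, 1, 0 and 2 members had an unadjusted p under 0.05 (HOXB4-ER at 1 h, at 4 h, 4 h minus 1 h, HOXB4const, the difference between constructs, and HOXB4-ER minus HOXB4const), or 2.70, 8.11, 10.8, 2.70, 0 and 5.41% of members, against 5.52, 3.94, 7.21, 5.13, 4.42 and 5.15% of all probe sets. Pairing cannot move these medians, since each group holds 1 array of each number. The block together with the trend and robust variance model, chosen after seeing the data, also called 0 (smallest adjusted p = 0.292, for 4 h minus 1 h). For the replicate number, 11 members passed with probe sets at or above the median level and 18 with the trend and robust variance model, and 0 in the other alternatives. Of those 11, Cxcl2 and Ptgs2 reached that level only through replicate 1. Leaving out single arrays moved the members' median at 4 h against with TMX between -0.26 and 1.29, and that of 4 h minus 1 h between -0.22 and 1.37; such fits keep unequal replicate numbers in the groups compared, and a lone array is taken to vary like the other groups. Over all alternatives the other medians ran between -0.73 and 0.52 in HOXB4-ER cells at 1 h, -0.50 and 0.34 in HOXB4const cells, -0.81 and 0.45 for the difference between constructs, and -0.64 and 0.65 for HOXB4-ER minus HOXB4const, with leaving out an array at each end. The median between the replicate numbers lay between 0.62 and 1.18. With a floor at 32, Ccl2 turned to -0.0134 in HOXB4-ER cells at 1 h and to 0.13 in HOXB4-ER minus HOXB4const. With the mean of probe sets, Tnfaip2 turned to -0.32 at 4 h and -0.14 for 4 h minus 1 h, and Traf1 in HOXB4const cells to 0.76. Leaving out single arrays put Ccl2 between -0.89 and 4.80 in HOXB4-ER cells at 1 h and between -4.36 and 1.33 in HOXB4-ER minus HOXB4const, and in HOXB4const cells Nfkb2 between -0.14 and 1.71, Traf1 between -2.46 and 0.63 and Cxcl1 between -0.56 and 1.60. The cause of each turn was not tested. Dim signals limit Traf1, Ccl2, Relb, Cd40 and Cxcl2, whose lowest values were 2.11, 0.88, 1.23, 3.10 and -0.04.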
